A study of Mus musculus with 11 samples.

Results

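The genes described here are 10 chemokine genes, Cxcl9, Cxcl10, Cxcl16, Ccl2, Ccl5, Ccl7, Ccl12, Ccl25, Cx3cl1 and Cxcl12, taken by symbol from the 25827 genes of the count matrices. Their unique molecular identifiers (UMIs, each standing for 1 captured RNA molecule) were summed per library and per cell class in nuclei of pooled mouse cerebellum, brainstem of 1 hemisphere and upper cervical spinal cord. The question was which nuclei carried the transcripts and which classes held no more than RNA spread evenly over all droplets. Mice were males of 8 to 12 weeks. In Il12rb2fl/fl mice the gene of an interleukin-12 receptor chain is flanked by loxP sites. Their NestinCre/+Il12rb2fl/fl littermates have, in addition, Cre from a Nestin transgene, expressed in precursors of neurons, astrocytes and oligodendrocytes. Experimental autoimmune encephalomyelitis (EAE), a model of multiple sclerosis, was induced in both genotypes with a myelin peptide in complete Freund's adjuvant and pertussis toxin, and tissue was taken at day 10. There were 4 Il12rb2fl/fl EAE libraries (fl EAE), 4 NestinCre/+Il12rb2fl/fl EAE libraries (NestinCre EAE) and 3 non-immunized ones (naive), of which fl naive 2 and 3 were Il12rb2fl/fl and NestinCre naive 2 was NestinCre/+Il12rb2fl/fl. Replicates 1 to 3 of each EAE group were sequenced in run 1, fl naive 2 and both replicates 4 in run 2, and the remaining naive libraries in run 3.

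Chemokines are small secreted or membrane-bound proteins that bind receptors on leukocytes and direct their migration along a gradient. CXCL9 and CXCL10 are induced by interferons and attract activated T cells and natural killer (NK) cells through CXCR3, CCL2, CCL7 and mouse CCL12 attract monocytes through CCR2, and CCL5 attracts T cells and myeloid cells. CXCL16 binds CXCR6, CCL25 binds CCR9, CX3CL1 of neurons binds CX3CR1 of microglia, and CXCL12 of endothelial and stromal cells retains leukocytes and progenitors through CXCR4.

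The matrices held 189709 barcodes, between 40761007 and 86063464 UMIs per library, and 159325 nuclei were kept after quality limits and removal of doublets. They fell into 23 named classes. Between any pair of libraries 47 to 140 barcode sequences were shared. The targeted gene Il12rb2 had 11.01 to 16.9 UMIs per 1000000 (CPM) in fl EAE libraries and 8.02 to 17.0 CPM in NestinCre EAE libraries, and these counts over the whole gene, introns included, do not separate deleted from intact transcripts. Clusters were left unnamed where, among other reasons, their leading genes held no marker of the nearest class or belonged to another class. The 4 of them nearest to immune classes are called here by their leading gene. They are the Iigp1-led, Mx1-led and Top2a-led clusters, each with 9 of 9 microglia markers, and the Zfp366-led cluster, with 6 of 8 markers of infiltrating phagocytes. The Zfp366-led cluster was left unnamed because genes of another class led it, and Clec9a, on the list of dendritic cell markers, is among its leading genes. NestinCre EAE libraries held 305 of the 314 nuclei of the Iigp1-led cluster, fl EAE 3 held the other 9, and infiltrating phagocytes numbered 357 in NestinCre EAE, 41 in fl EAE and 4 in naive libraries. Within the fl EAE group, replicate 3 stood apart for several chemokines, and the tests and ratios that it moves are given with and without it.

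The interferon-inducible ligands Cxcl9 and Cxcl10 were low outside NestinCre EAE libraries and fl EAE 3. Cxcl9 had 4.93, 4.91, 10.5 and 4.12 CPM in NestinCre EAE 1 to 4, summed over all kept nuclei. In fl EAE 1 to 4 it had 0.0246, 0, 1.32 and 0 CPM, from 1, 0, 72 and 0 UMIs. The naive libraries held 2 Cxcl9 UMIs in all, both in NestinCre naive 2. Cxcl10 had 13.3, 15.2, 24.3 and 5.76 CPM in NestinCre EAE 1 to 4 and 0.123, 0.0441, 4.24 and 0.119 CPM in fl EAE 1 to 4, against 7 UMIs in the 3 naive libraries together. For both genes every NestinCre EAE library was above every fl EAE library, and the fl EAE group mean came almost entirely from replicate 3. In whole-library sums, a change in the number of nuclei of a type cannot be told apart from a change in RNA per nucleus.

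Cxcl9 (ENSMUSG00000029417) lies on the minus strand of chromosome 5 at 92469206 to 92475945 (GRCm39) and Cxcl10 (ENSMUSG00000034855) at 92494497 to 92496748 on the same strand, inside the antisense gene Art3. Because both members move together in these libraries, the 250 bases before their start sites are shown from RefSeq (build GRCm38.p6), for Cxcl9 chr5:92328080-92328329 and for Cxcl10 chr5:92348890-92349139, both on the minus strand. Capitals mark matches on either strand to an interferon-stimulated response element, searched as GAAA, any 2 bases and GAAA, and to an NF-kB-like motif, searched as GGGA, any 4 bases and CC.
Cxcl9: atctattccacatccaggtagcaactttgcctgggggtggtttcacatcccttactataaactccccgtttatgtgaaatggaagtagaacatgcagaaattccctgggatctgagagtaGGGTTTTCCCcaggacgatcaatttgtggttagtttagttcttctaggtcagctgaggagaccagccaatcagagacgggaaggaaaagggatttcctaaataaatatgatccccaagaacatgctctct
Cxcl10: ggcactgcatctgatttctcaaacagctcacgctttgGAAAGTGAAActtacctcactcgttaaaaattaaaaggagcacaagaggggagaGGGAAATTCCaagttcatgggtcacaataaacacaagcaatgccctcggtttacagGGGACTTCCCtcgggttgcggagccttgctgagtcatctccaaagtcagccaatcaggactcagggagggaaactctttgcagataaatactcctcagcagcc

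The Cxcl10 window held 1 match to the interferon-stimulated response element (GAAAGTGAAA, starting 213 bases before the start) and 2 NF-kB-like matches (GGGAAATTCC at 159 and GGGACTTCCC at 103 bases before it). The Cxcl9 window held 1 NF-kB-like match, GGGTTTTCCC, read on the opposite strand and starting 130 bases before the start. The search window was 300 bases, the 250 shown and the 50 that follow the start, for members and for all other genes. Of 32851 promoter windows of that length in the same table, 3.44% held the response element, 20.7% the NF-kB-like motif and 8.30% the palindromic motif TTCNNNGAA, which no member window held. Windows were at hand for 6 of the 10 members, and those of Cxcl12, Ccl25, Cx3cl1 and Ccl12 held none of the 3 motifs. These matches are letters in a window and not measured sites.

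The monocyte-attracting ligands Ccl2, Ccl7 and Ccl12, which neighbour each other on the plus strand of chromosome 11 (GRCm39 81926397 to 81928279, 81936532 to 81938351 and 81992645 to 81994466), were also highest in NestinCre EAE libraries. Ccl2 had 4.52, 3.69, 4.32 and 2.73 CPM in NestinCre EAE 1 to 4 and 0.148, 0.0441, 1.46 and 0.356 CPM in fl EAE 1 to 4, against 8 UMIs in all naive libraries. Ccl7 was scarce, with 0.937, 0.809, 0.757 and 0.351 CPM in NestinCre EAE 1 to 4 and 0.0738 to 0.201 CPM in fl EAE libraries, from 31 UMIs. Neither gene's EAE groups overlapped. Ccl12 had 5.26, 8.42, 7.10 and 7.503 CPM in NestinCre EAE 1 to 4, against 1.45, 0.793, 5.45 and 1.35 CPM in fl EAE 1 to 4 and 0.265 to 0.317 CPM in naive libraries. For Ccl12 the groups overlapped, because fl EAE 3 was above NestinCre EAE 1, and both EAE groups were above all naive libraries.

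Ccl5 and Cxcl16, a membrane-anchored ligand of CXCR6, were detected in all libraries, naive ones included. Ccl5 had 5.62, 8.85, 9.31 and 5.39 CPM in NestinCre EAE 1 to 4, 1.03, 1.59, 2.43 and 1.42 CPM in fl EAE 1 to 4 and 3.18, 1.39 and 1.65 CPM in the naive libraries (fl 2 and 3, then NestinCre 2). Cxcl16 averaged 2.36 ± 0.820 CPM in NestinCre EAE (SD, n = 4), 0.753 ± 0.223 CPM in fl EAE (n = 4) and 0.865 ± 0.118 CPM in naive libraries (n = 3). In both genes all NestinCre EAE libraries were above all others, and fl EAE and naive libraries overlapped. Cxcl16 overlaps the antisense genes Med11 and Zmynd15 on chromosome 11, and whether reads of those genes were counted to it was not tested.

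The remaining members differed little between groups. Ccl25 had 60.2 ± 0.152 CPM in NestinCre EAE, 62.6 ± 2.37 CPM in fl EAE and 69.2 ± 4.79 CPM in naive libraries. Cx3cl1 had 23.8 ± 4.32, 22.9 ± 4.51 and 24.9 ± 2.04 CPM, and Cxcl12 had 3.63 ± 1.12, 3.22 ± 0.523 and 3.75 ± 1.07 CPM in the same order (SD, n = 4, 4 and 3). Ccl25 was lower in each NestinCre EAE library than in any naive library, by a small margin.

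**Figure D1:**
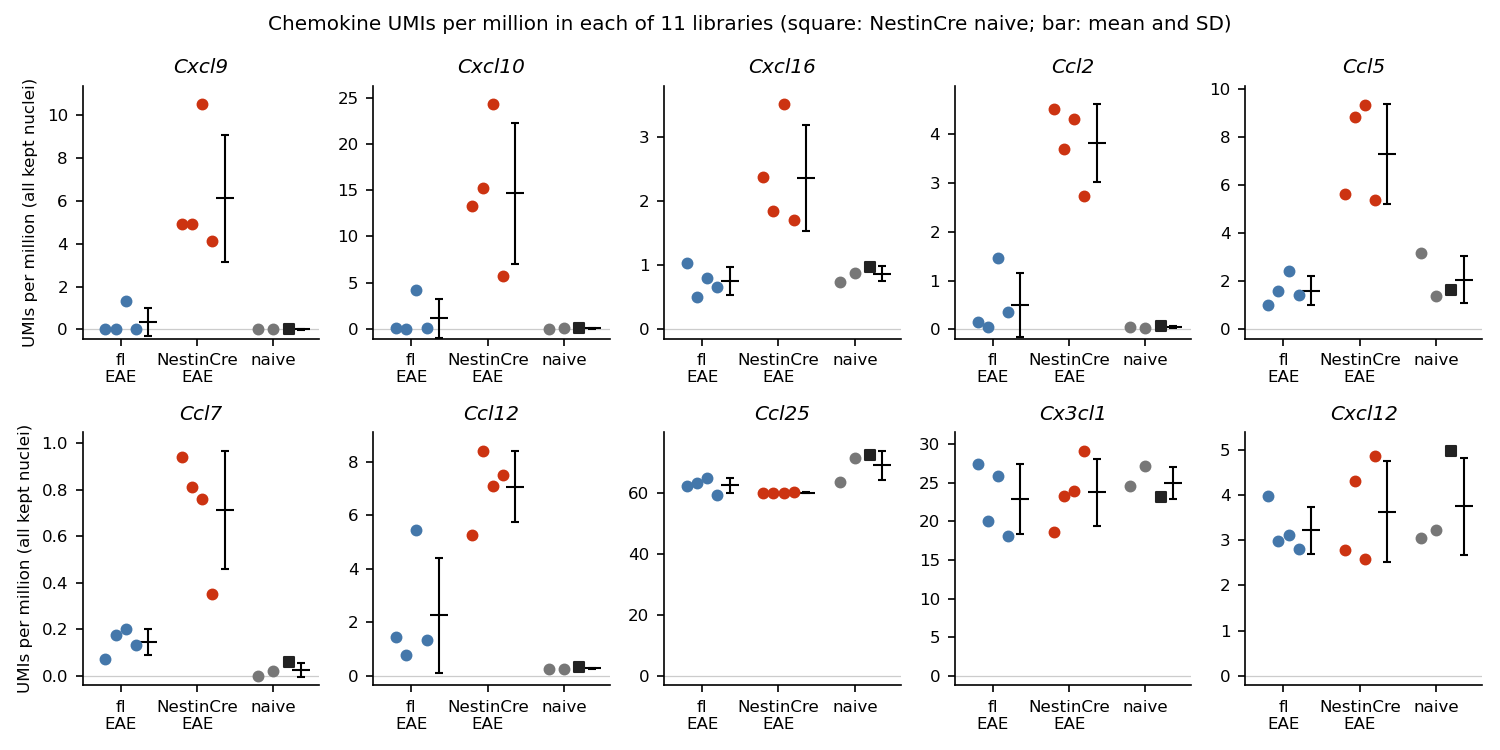
UMIs per 1000000 (CPM) of each chemokine gene in all kept nuclei of the 11 libraries, by group; points are libraries in replicate order, the square is NestinCre naive 2, and the horizontal marks with bars are group means ± SD. The NestinCre EAE points lie above all fl EAE points for Cxcl9, Cxcl10, Cxcl16, Ccl2, Ccl5 and Ccl7, fl EAE 3 is the high fl EAE point for Cxcl9, Cxcl10, Ccl2 and Ccl12, and Ccl25, Cx3cl1 and Cxcl12 sit at like levels in every group.

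The genotypes were compared in EAE over all kept nuclei of a library with edgeR's quasi-likelihood test, with sequencing run in the model and Benjamini-Hochberg adjustment over all 17995 genes tested. The methods of the study name mice as the replicates of the EAE groups, while the labels tie no library to an animal, so the p-values measure the spread between these libraries. Of the 10 members 4 rose in NestinCre EAE and none fell, where 3.3% of all genes passed the test (584 higher, 10 lower). Cxcl9, Cxcl10, Ccl2 and Ccl7 could pass the filter on low counts through the NestinCre EAE libraries, in which they were high. No share of members is therefore read from the counts over all nuclei, here or in the fits below. Ccl5 rose by a log2 fold change of 2.12 (SE 0.27, adjusted p = 0.00837), Ccl7 by 2.14 (SE 0.33, adjusted p = 0.0126), Cxcl16 by 1.60 (SE 0.28, adjusted p = 0.0167) and Cxcl9 by 4.25 (SE 0.94, adjusted p = 0.0485). Cxcl10 (3.79, SE 0.91, adjusted p = 0.0697), Ccl2 (2.84, SE 0.66, adjusted p = 0.0575) and Ccl12 (1.65, SE 0.51, adjusted p = 0.195) did not pass. The values of Cxcl12 (0.14, SE 0.21), Cx3cl1 (0.04, SE 0.15) and Ccl25 (-0.07, SE 0.05) were close to 0. The libraries of the EAE groups did not overlap for 6 members, where 6.81% of all genes showed no overlap.

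Single libraries decided several of these calls. Without fl EAE 3, Cxcl9 (9.24, adjusted p = 0.000973), Cxcl10 (6.90, adjusted p = 0.000973), Ccl2 (4.20, adjusted p = 0.00480) and Ccl12 (2.55, adjusted p = 0.00226) all passed, together with Cxcl16, Ccl5 and Ccl7, so that 7 members were called, where 3.44% of all genes were. The call of Cxcl9 was lost when any of the other 7 EAE libraries was left out (adjusted p = 0.0650 to 0.161) and with all deposited barcodes. DESeq2 called Cxcl16, Ccl7 and Ccl5, where 4.85% of genes passed, and gave no p for Cxcl9 and Cxcl10, in which it marks outlying counts. The call of Cxcl16 was lost without fl EAE 1, fl EAE 2 or NestinCre EAE 3 (adjusted p = 0.0510 to 0.0564), that of Ccl7 without fl EAE 2 (adjusted p = 0.0511), and that of Ccl5 in no such fit. Within run 1 alone, 3 against 3 libraries, Cxcl16, Ccl7 and Ccl5 passed, where 3.42% of genes did; run 2 holds 1 library of each EAE group and gives no test. The count over all genes fell from 594 to 166 without fl EAE 1, 245 without fl EAE 2, 345 without NestinCre EAE 1 and 207 without NestinCre EAE 3.

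Summed markers of some immune classes moved with the genotype in the same libraries, and those of others overlapped between the EAE groups. The summed level of 8 markers of infiltrating phagocytes was 55.2 to 231 CPM in NestinCre EAE, 31.5 to 48.4 CPM in fl EAE and 27.3 to 35.02 CPM in naive libraries, and all 8 were detected in every library. The 7 neutrophil markers summed to 18.7 to 116 CPM, 8.09 to 13.2 CPM and 6.43 to 9.41 CPM in the same order, and the 10 markers of T or NK cells to 21.3 to 28.6 CPM, 12.3 to 21.3 CPM and 16.8 to 21.2 CPM. The 9 microglia markers summed to 232 to 288 CPM in NestinCre EAE and 164 to 216 CPM in fl EAE, without overlap, and to 225 to 353 CPM in naive libraries. The 5 B cell markers summed to 5.82 to 11.7 CPM, 4.19 to 5.91 CPM and 4.14 to 7.12 CPM in NestinCre EAE, fl EAE and naive libraries, and 85, 5 and 1 nuclei fell in the B cell class. The 6 markers of border-associated macrophages summed to 26.0 to 41.5 CPM, 20.2 to 22.9 CPM and 19.8 to 26.2 CPM in the same order. The 5 dendritic cell markers summed to 126 to 136 CPM, 119 to 141 CPM and 132 to 147 CPM in that order. The EAE groups overlapped for the markers of T or NK cells, B cells and dendritic cells. With all nuclei of the immune classes left out, the same 4 members (Cxcl9, Cxcl16, Ccl7 and Ccl5) passed the genotype test, and they passed again when the 4 unnamed clusters nearest to immune classes were left out as well. These fits tested 17883 and 17801 genes, and the count of genes called in the latter is given in the closing section. That of the former is not given, so its calls stand without a share of all genes. Leaving out nuclei does not remove RNA of immune cells from the nuclei that remain. No share of members is read from these fits, and the part of immune cells in the result was not tested.

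Against the naive libraries the model rested on few samples, because run 3 held only naive libraries and fl naive 2 alone shares a run with EAE libraries. No member passed the test over all nuclei in NestinCre EAE (0 of 10, where 0.0162% of 18574 genes passed). At an unadjusted p under 0.05 there were 6 members (12.5% of genes), and DESeq2 called 3 (2.56% of genes). In fl EAE likewise 0 of 10 members passed, where 0% of genes did, with 3 at an unadjusted p under 0.05 (13.8% of genes) and 0 by DESeq2 (2.11% of genes). Without the run term 7 members passed in NestinCre EAE, where 3.64% of genes did, and 0 in fl EAE, where 0% did. Without fl EAE 3 the count in NestinCre EAE was 4 (Cxcl9, Cxcl10, Ccl2 and Ccl12, with 0.438% of genes), and without NestinCre EAE 4 it was 1 (Ccl7, with 2.9% of genes). The naive libraries are shared by both comparisons, so their values are set side by side only.

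Pooled counts show the size of the differences from the naive state, with intervals that cover counting error only. NestinCre EAE held 1068 Cxcl9 UMIs against 2 in naive libraries, a ratio per UMI sequenced of 428 (95% interval 118 to 3539), and 2432 Cxcl10 UMIs against 7, a ratio of 278 (135 to 693). The ratios were 68.4 (34.5 to 159) for Ccl2, 24.6 (9.39 to 91.9) for Ccl7, 25.0 (18.4 to 34.7) for Ccl12, 3.29 (2.90 to 3.73) for Ccl5 and 2.58 (2.11 to 3.16) for Cxcl16. In fl EAE the ratio to naive was 26.4 (7.06 to 222) for Cxcl9, 25.6 (12.2 to 64.2) for Cxcl10, 10.1 (4.97 to 24.1) for Ccl2, 8.15 (5.96 to 11.4) for Ccl12 and 5.61 (1.98 to 21.9) for Ccl7. Replicate 3 carried most of these. Without it the ratios were 0.491 (0.00832 to 9.43) for Cxcl9, from 1 UMI, 2.10 (0.808 to 6.10) for Cxcl10, 3.93 (1.77 to 9.87) for Ccl2, 4.25 (3.03 to 6.06) for Ccl12 and 4.91 (1.64 to 19.8) for Ccl7. Ccl5 (0.784, 0.671 to 0.916) and Cxcl16 (0.858, 0.675 to 1.09) were not above naive in fl EAE. The groups' libraries did not overlap with naive ones for 8 members in NestinCre EAE, 7 higher and Ccl25 lower, where 14.3% of all genes did not overlap, and for 2 members in fl EAE (Ccl7 and Ccl12), where the share was 12.8%.

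The class of the nuclei that carried each transcript was examined next, by UMIs per 1000 nuclei in the 4 NestinCre EAE libraries pooled, with exact Poisson intervals at the 95% level that cover counting error only. The pooled Cxcl9 level was highest in the Iigp1-led cluster, whose other leading genes include Gbp5 and Cd274, at 570.5 UMIs per 1000 nuclei (489 to 662). The Zfp366-led cluster followed at 370 (244 to 538) and leptomeningeal cells or fibroblasts at 355 (222 to 537), and both intervals overlap that of the Iigp1-led cluster. Without the nucleus with the most Cxcl9, which held 25 UMIs, the Iigp1-led cluster stood at 490 (415 to 575), and its libraries at 165, 224, 1119 and 1071 in NestinCre EAE 1 to 4 with that nucleus in. No order among these classes is read. Infiltrating phagocytes held 244 Cxcl9 UMIs per 1000 nuclei (195 to 301) and named microglia 17.7 (8.81 to 31.6). The leptomeningeal value rested on NestinCre EAE 2, which gave 17 of its 22 UMIs from 11 nuclei. The 12 Cxcl9 UMIs of border-associated macrophages came from 1 library.

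Cxcl10 was carried by more kinds of nuclei. It reached 1960 UMIs per 1000 nuclei (1695 to 2254) in the Top2a-led cluster, microglia-like nuclei led by genes of cell division, 1368 (894 to 2005) in mural cells, 1338 (1211 to 1474) in the Iigp1-led cluster, 1070 (819 to 1375) in the Mx1-led cluster, 1000 (602 to 1562) in endothelial cells and 984 (753 to 1264) in leptomeningeal cells or fibroblasts. Infiltrating phagocytes held 675 (593 to 766) and neutrophils 318. The libraries gave different shares of the nuclei of each class, so no order among these classes is read from the pooled values. The Top2a-led cluster stood at 2100, 545, 6053 and 660 Cxcl10 UMIs per 1000 nuclei in NestinCre EAE 1 to 4, from 20, 11, 19 and 50 nuclei, and at 1576 (1338 to 1843) pooled without its nucleus with the most Cxcl10, which held 40 UMIs. The leptomeningeal value came from all 4 NestinCre EAE libraries, at 667, 1727, 1933 and 143 UMIs per 1000 nuclei, where fl EAE 1, 2 and 4 held none and fl EAE 3 held 3 UMIs. Mural and endothelial cells numbered 19 nuclei each, and 23 of the 26 Cxcl10 UMIs of mural cells came from NestinCre EAE 2. Bergmann glia, the radial astrocytes of the cerebellar cortex, held 235 Cxcl10 UMIs per 1000 nuclei, of which 39 of 42 UMIs came from NestinCre EAE 1, and held 43.5, 22.7 and 0 in the other NestinCre EAE libraries. In the Iigp1-led cluster Cxcl10 stood at 440, 701, 2729 and 2171 UMIs per 1000 nuclei in NestinCre EAE 1 to 4, below the Top2a-led cluster in NestinCre EAE 1 and 3 and above it in 2 and 4.

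Among the monocyte-attracting ligands, Ccl12 was a transcript of microglia and border-associated macrophages in both genotypes. In microglia it had 492.5, 495, 458 and 388 UMIs per 1000 nuclei in NestinCre EAE 1 to 4, 200.0, 85.7, 548 and 291 in the 4 fl EAE libraries, against 13.1, 67.9 and 54.3 in the naive libraries in the order fl 2, fl 3 and NestinCre 2. In border-associated macrophages Ccl12 had 333 to 1429 UMIs per 1000 nuclei in NestinCre EAE libraries and 643 to 1333 in fl EAE libraries, against 3 UMIs in 47 naive nuclei. The Mx1-led cluster held 930 Ccl12 UMIs per 1000 nuclei (697 to 1216), and its interval overlaps those of border-associated macrophages (809, 572 to 1110) and the Top2a-led cluster (760, 599 to 951).

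The highest pooled Ccl2 levels were those of the Top2a-led (690, 537 to 873), Mx1-led (421, 270 to 626) and Iigp1-led clusters (262, 208 to 326 UMIs per 1000 nuclei). Without the nucleus with the most Ccl2, which held 15 UMIs, the Top2a-led cluster stood at 545 (410 to 712). No order among these clusters is read. Named microglia held 89.6, 134, 56.3 and 136 Ccl2 UMIs per 1000 nuclei in NestinCre EAE 1 to 4, against 8.33, 0, 30.2 and 18.2 in fl EAE 1 to 4, without overlap. Ccl7 was highest in border-associated macrophages, the macrophages of meninges and perivascular spaces, at 213 UMIs per 1000 nuclei in NestinCre EAE (102 to 391, 10 UMIs) and 149 in fl EAE (59.9 to 307, 7 UMIs), and its naive count there was 0 in 47 nuclei.

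Within microglia, Ccl12 rose in both EAE groups against naive libraries, by a log2 fold change of 4.22 (SE 0.64, adjusted p = 5.05e-05) in NestinCre EAE and 3.53 (SE 0.68, adjusted p = 0.0242) in fl EAE. In NestinCre EAE 2 of the 3 members tested in microglia passed, where 2.97% of 6758 genes did, the other being Ccl2 (3.89, SE 0.97, adjusted p = 0.0172, from 2 naive UMIs). Ccl2 could pass the filter on low counts through NestinCre EAE, where it was high, so no share of members is read from this count. Ccl12 passed with DESeq2 (adjusted p = 0.000209) and with each library left out in turn for which a fit was made. No fit could be made without fl naive 2, the only naive library that shares a run with EAE libraries. Its microglial Ccl12 was the lowest of the naive libraries, and how far both values lean on it was not tested. DESeq2 gave Ccl2 no adjusted p, and without NestinCre EAE 1, 2 or 4 it did not pass the filter on low counts and was not tested. In fl EAE 1 of 3 passed, where 0.104% of genes did, and its call was lost without fl EAE 4 (3.54, adjusted p = 0.136) and with DESeq2 (adjusted p = 0.197). In the remaining classes 0 of 30 member tests passed in NestinCre EAE, mature oligodendrocytes aside (0.113% of gene tests, 8 member tests at an unadjusted p under 0.05), and 0 of 37 in fl EAE (0.223%, 3 at an unadjusted p under 0.05). In NestinCre EAE the 8 were Cxcl9, Cxcl10, Cxcl16, Ccl2, Ccl5, Ccl7 and Ccl12 in granule cells and Cxcl10 in molecular layer interneurons. There 1967 of 16341 and 1042 of 12105 genes had such a p. In fl EAE the 3 were Ccl5, lower in excitatory neurons (-1.32) and mature oligodendrocytes (-1.66), and Ccl12, higher in mature oligodendrocytes (3.85). In these classes 1426 of 14373 and 1709 of 12773 genes had such a p. No excess of members is read from the unadjusted counts. The genotype effect in EAE passed for 0 of 2 members tested in microglia, where 2.65% of 5137 genes passed. For Ccl12 it was 0.71 (SE 0.26, unadjusted p = 0.00988, adjusted p = 0.186), 1 of the 2 members at an unadjusted p under 0.05, where 610 of 5137 genes were.

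The unnamed microglia-like clusters are left out of that comparison, and joining them to microglia, an alternative chosen after the data were seen, changed its result. The 3 clusters add 462 nuclei to the 623 microglia of NestinCre EAE and 23 to the 534 of fl EAE. In NestinCre EAE they supply 94.9% of the joined Cxcl9 UMIs, 94.5% of those of Cxcl10, 71.5% of those of Ccl5 and 71.2% of those of Ccl2. The values of the joined class therefore follow which group holds these nuclei, and a change per nucleus cannot be told apart from it. Members could also pass the filter on low counts through the NestinCre EAE libraries, so no share of members is read from the count that follows. Of the 6 members then tested 4 passed, where 6.67% of 7239 genes did: Ccl5 (5.45, adjusted p = 2.17e-05), Ccl2 (2.56, adjusted p = 0.000255), Cxcl10 (3.25, adjusted p = 0.000935) and Cxcl9 (3.06, adjusted p = 0.00574), while Ccl12 (0.61, adjusted p = 0.299) and Ccl25 (0.06, adjusted p = 0.950) did not pass.

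Ccl5 was highest in infiltrating phagocytes (291, 238 to 353 UMIs per 1000 nuclei), the Iigp1-led cluster (249, 196 to 312) and T or NK cells (224, 141 to 340), whose intervals overlap. In T or NK cells it had 83.3, 471, 108 and 400.0 UMIs per 1000 nuclei in NestinCre EAE 1 to 4, from 22 UMIs in 98 nuclei. A single phagocyte nucleus held 55 Ccl5 UMIs, and without it infiltrating phagocytes stood at 138 (102 to 182), below the Iigp1-led cluster. Cxcl16 was highest in border-associated macrophages (170, 73.5 to 335) and the Iigp1-led cluster (164, 122 to 216), and in naive libraries border-associated macrophages held 128 Cxcl16 UMIs per 1000 nuclei (46.8 to 278).

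**Figure D2:**
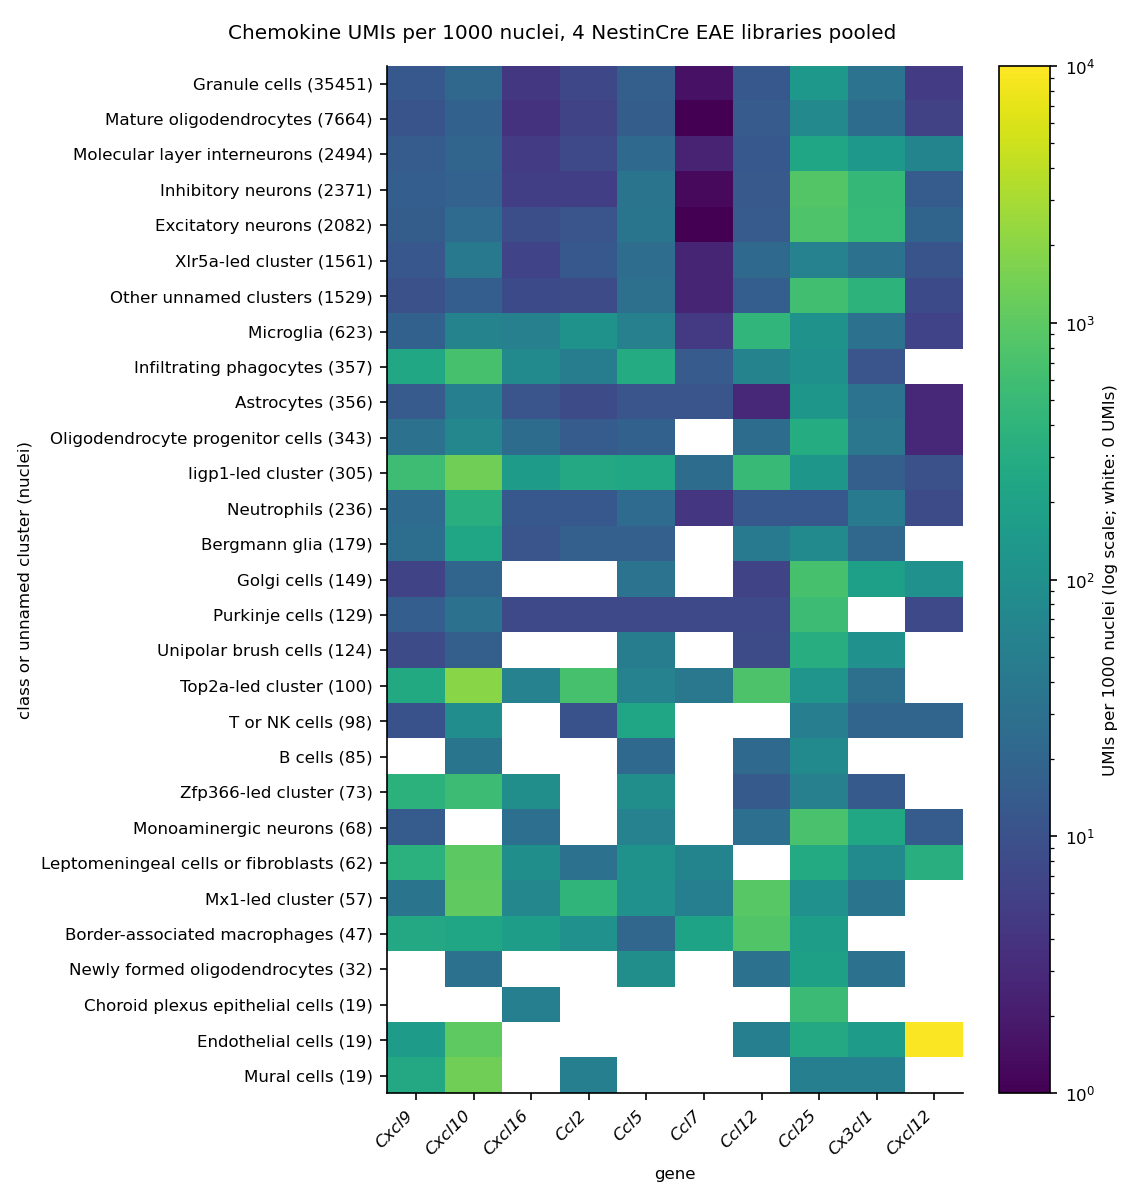
UMIs per 1000 nuclei of each chemokine gene (columns) in each class or unnamed cluster (rows, with numbers of nuclei), pooled over the 4 NestinCre EAE libraries, on a log colour scale; white marks 0 UMIs. The brightest fields are Cxcl12 in endothelial cells (9421) and Cxcl10 in the Top2a-led cluster (1960), and the first 5 rows, the most abundant classes, lie between 5.48 and 25.5 for Cxcl9, Cxcl10, Ccl2 and Ccl12.

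In NestinCre EAE the abundant classes of neurons and glia carried Cxcl9, Cxcl10, Ccl2 and Ccl12 at low levels per nucleus. Cxcl9 stood at 12.5 UMIs per 1000 nuclei in granule cells (11.3 to 13.7), the small excitatory neurons of the cerebellar cortex, 11.0 (8.74 to 13.6) in mature oligodendrocytes, 14.8 (10.4 to 20.4) in molecular layer interneurons, 14.9 (10.1 to 21.1) in other excitatory neurons and 15.6 (11.0 to 21.5) in inhibitory neurons. All 5 intervals overlap, although excitatory neurons had a median of 9364 UMIs per nucleus and granule cells 2049. On the CPM scale Cxcl9 stood at 5.34 CPM in granule cells and 1.29 CPM in excitatory neurons. For Cxcl10 the same 5 classes held 22.002, 17.4, 20.05, 25.5 and 18.1 UMIs per 1000 nuclei, for Ccl12 12.4, 14.0, 12.8, 13.9 and 13.1, and for Ccl2 7.31, 6.65, 7.62, 11.5 and 5.48. In the pooled counts oligodendrocyte progenitors and astrocytes held more Cxcl10 than granule cells, but not in each library. Progenitors were below granule cells in NestinCre EAE 1 and NestinCre EAE 3, and astrocytes in NestinCre EAE 1. In oligodendrocyte progenitors Cxcl10 stood at 70.0 UMIs per 1000 nuclei (44.8 to 104), from 24 UMIs in 343 nuclei, and at 14.7, 86.4, 15.6 and 115 in NestinCre EAE 1 to 4. Their Cxcl9 stood at 32.1 (16.0 to 57.4) and their Cxcl16 at 26.2 (12.0 to 49.8), both above granule cells, and their Ccl12 at 26.2 (12.0 to 49.8), whose interval includes the granule level. In astrocytes Cxcl10 stood at 53.4 (32.1 to 83.3), from 19 UMIs in 356 nuclei, and at 0, 62.5, 76.9 and 45.5 by library, while their Cxcl9 stood at 14.0 (4.56 to 32.8). Free RNA that reached all droplets alike would add a like number of UMIs to each nucleus. It was not measured, and its part in these levels was not tested. Ccl5 was not even in this way: excitatory (36.0, 28.3 to 45.2) and inhibitory neurons (34.2, 27.1 to 42.5) held more Ccl5 UMIs per 1000 nuclei than granule cells (16.3, 15.03 to 17.7), and in naive libraries they held 38.7 and 37.5. Cxcl16 in excitatory neurons (9.13, 5.49 to 14.3) was also above granule cells (4.37, 3.71 to 5.12), and its level there was 9.41 against 1.28 in fl EAE and 8.30 against 1.97 in naive libraries. On the CPM scale the order turned in NestinCre EAE, where excitatory neurons held 3.12 CPM of Ccl5 and 0.791 CPM of Cxcl16 and granule cells 6.996 CPM and 1.87 CPM. In naive libraries Ccl5 stayed higher in excitatory neurons (3.37 CPM against 1.56 CPM), while Cxcl16 stood at 0.723 CPM there and 0.772 CPM in granule cells. In fl EAE both were higher in excitatory neurons, with 1.85 CPM against 1.42 CPM for Ccl5 and 0.792 CPM against 0.486 CPM for Cxcl16.

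In fl EAE the levels were lower and less even. Cxcl10 stood at 1.44 UMIs per 1000 nuclei in granule cells, 1.12 in molecular layer interneurons, 5.23 in excitatory and 17.5 in inhibitory neurons, and a single inhibitory nucleus held 29 of the 39 UMIs behind the last value. Ccl2 stood at 1.076 in granule cells and 7.32 in excitatory neurons, where all 14 UMIs came from fl EAE 3. Without fl EAE 3, Cxcl10 was 0.195 in granule cells and 0.667 in inhibitory neurons, from 1 UMI.

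Genes known to belong to 1 lineage served as yardsticks for this spread. Granule cells held 2.19% of the highest class's UMIs per nucleus for Cxcl9, 1.12% for Cxcl10, 2.57% for Cxcl16, 1.06% for Ccl2, 0.729% for Ccl7, 1.33% for Ccl12 and 5.61% for Ccl5. For 5 myeloid yardstick genes (Csf1r, C1qa, C1qb, Lyz2 and Ptprc) the share in granule cells was 0.462% to 4.94%, and for 3 oligodendrocyte genes (Mobp, Mog and Mag) it was 2.72% to 3.37%. All the inflammatory members but Ccl5 lay within the range of the myeloid yardsticks. With 1 library left out, Ccl5 stood at 3.71% to 5.81%, on both sides of the upper end of that range. All yardstick genes are also on the marker lists that named the classes, so their concentration in 1 class was partly set by the naming. The members were left out of the clustering, and the ranges are a description only. Cxcl12 at 0.0551% lay within that of the vascular yardsticks Flt1, Cldn5, Dcn and Col1a2 (0.0167% to 0.379%), and Ccl25 at 16.1% above the range of all 3 kinds.

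**Figure D3:**
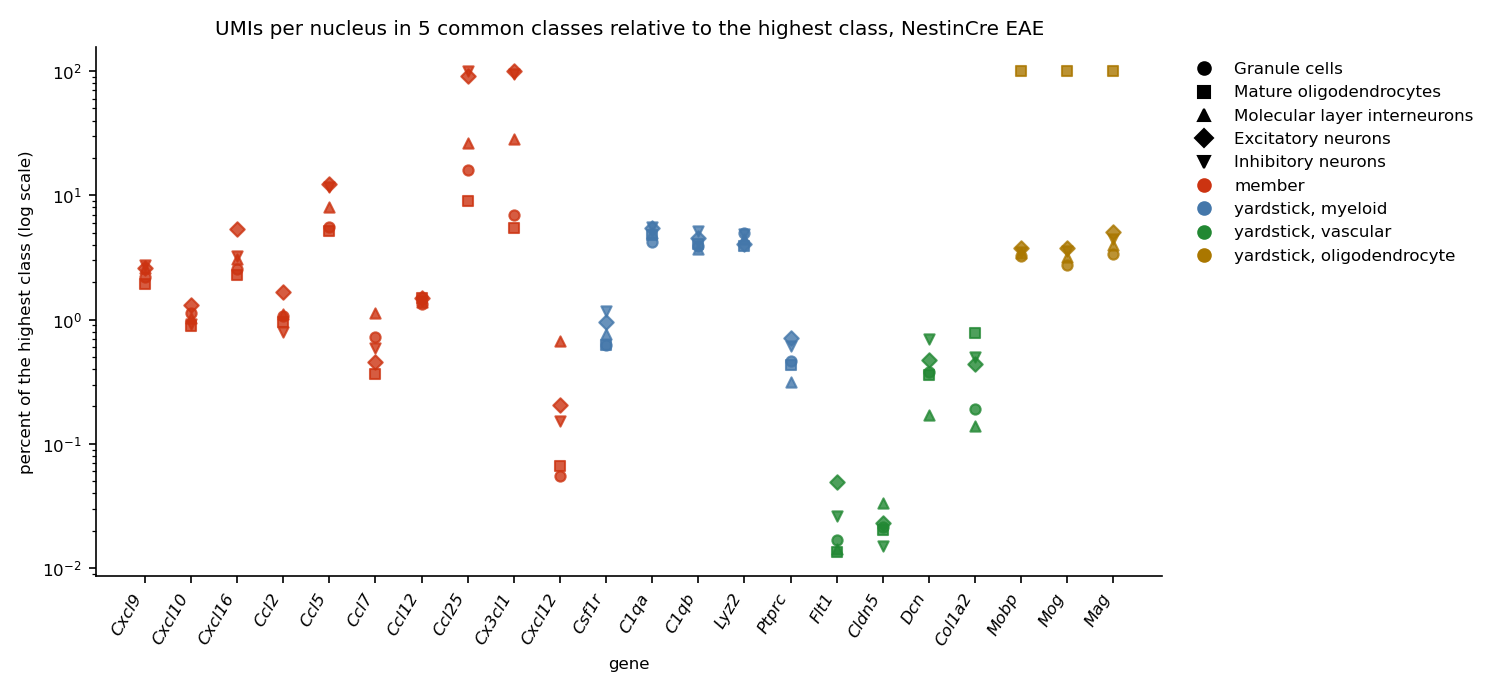
UMIs per nucleus in 5 abundant classes (marker shapes) as a percent of the highest class or cluster, on a log scale, for the 10 chemokine genes (red) and for yardstick genes of myeloid cells (blue), vessels (green) and oligodendrocytes (ochre) in NestinCre EAE. Cxcl9, Cxcl10, Ccl2 and Ccl12 lie between 0.795% and 2.74%, inside the span of the myeloid yardsticks, whereas Ccl25 and Cx3cl1 reach 100% in neurons.

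The mixture of chemokines was compared between classes by shares, with no test of the differences. Of the UMIs of Cxcl9, Cxcl10, Ccl2, Ccl7 and Ccl12 in granule cells, 22.4% were Cxcl9, 39.5% Cxcl10, 13.1% Ccl2, 2.78% Ccl7 and 22.3% Ccl12. Mature oligodendrocytes held 22.05%, 34.9%, 13.4%, 1.57% and 28.1% in the same order, and excitatory and inhibitory neurons together 25.6%, 36.1%, 13.9%, 1.88% and 22.6%. The share of Ccl12 was 14.95%, 25.4%, 14.3% and 38.03% in granule cells of NestinCre EAE 1 to 4 and 19.2%, 25.3%, 11.2% and 45.3% in their mature oligodendrocytes, so that it varied more between libraries than between these classes. Microglia held 68.6% Ccl12 and 9.95% Cxcl10, infiltrating phagocytes 64.8% Cxcl10 and 5.91% Ccl12, neutrophils 85.2% Cxcl10, and border-associated macrophages 50.0% Ccl12 and 13.2% Ccl7. The Iigp1-led cluster held 21.2% Cxcl9, 49.7% Cxcl10, 9.74% Ccl2, 0.974% Ccl7 and 18.4% Ccl12.

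**Figure D4:**
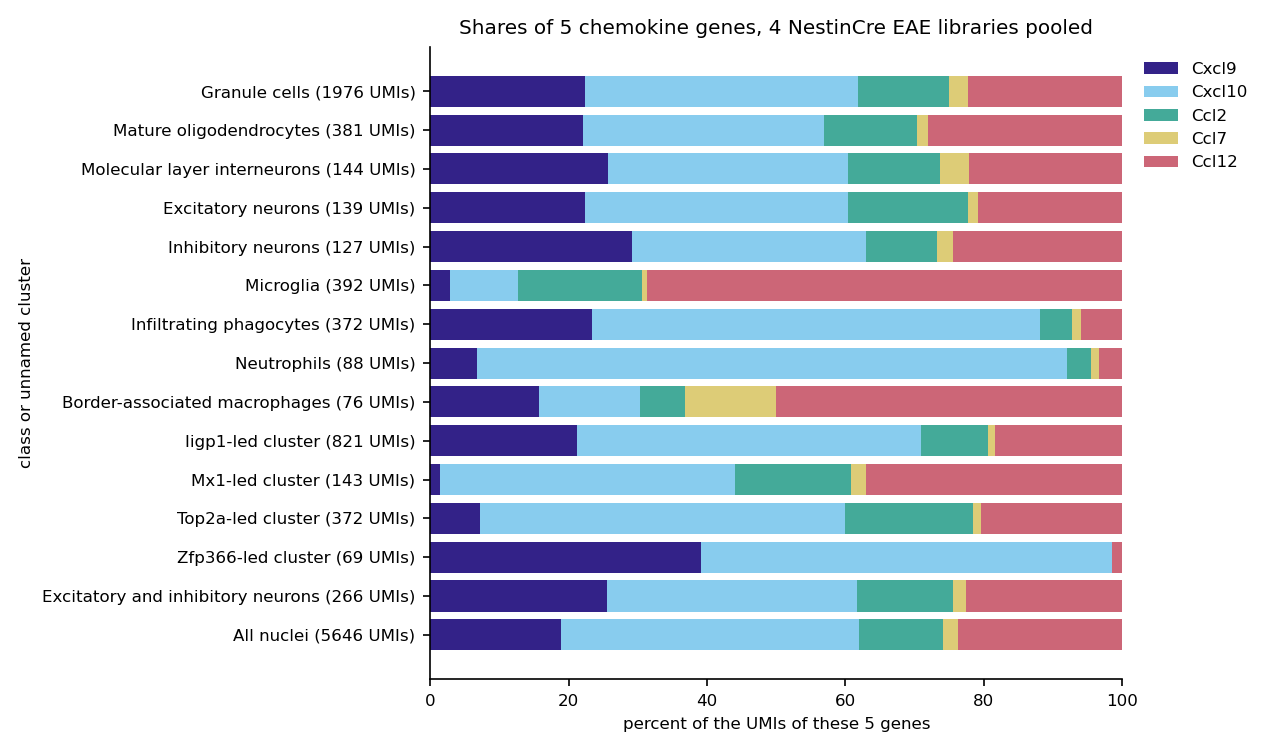
Shares of Cxcl9, Cxcl10, Ccl2, Ccl7 and Ccl12 (colours) among the UMIs of these 5 genes, by class or unnamed cluster, in the 4 NestinCre EAE libraries pooled; the numbers of UMIs stand beside the names. Cxcl10 is the largest share in the 5 abundant classes at the top, microglia are mostly Ccl12 (68.6%) and neutrophils mostly Cxcl10 (85.2%).

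For Cxcl9, Cxcl10 and Ccl12, nuclei with 3 or more UMIs lay mostly in the immune classes and unnamed clusters. Of 1469 kept nuclei with a Cxcl10 UMI, 147 held 3 or more, and these held 46.9% of its UMIs; 71 lay in the 4 unnamed immune-nearest clusters, 43 in immune classes and 11 in granule cells. The highest nucleus, in the Top2a-led cluster, held 40. Of 806 nuclei with a Cxcl9 UMI, 46 held 3 or more, 27 of them in the unnamed clusters, 10 in immune classes and 4 in granule cells. In granule cells of NestinCre EAE, 640 of the 686 Cxcl10-positive nuclei held a single UMI. Of 112 nuclei with 3 or more Ccl12 UMIs, 68 lay in immune classes and 34 in the unnamed clusters, and 30 came from fl EAE libraries. For Ccl25, 3 of 1798 such nuclei lay in immune classes, and for Cx3cl1 0 of 448 and for Cxcl12 0 of 46. In Bergmann glia 4 nuclei held 69.05% of the Cxcl10 UMIs, and in leptomeningeal cells or fibroblasts 5 nuclei held 83.6%.

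Cxcl9 and Cxcl10 were found in the same nuclei in some of the immune classes and clusters. In the Iigp1-led cluster 23 of the 35 nuclei with a Cxcl9 UMI also held Cxcl10 (65.7%), against 20% of its other nuclei. In infiltrating phagocytes this held for 16 of 41 nuclei (39.02%, against 12.7% of the others), and in named microglia for 0 of 8 (against 2.76%). In granule cells it held for 15 of 404 (3.71%, against 1.91%), and in molecular layer interneurons and excitatory neurons for 0 of 34 and 0 of 27. These shares pool the nuclei of all NestinCre EAE libraries, between which both genes differed in the Iigp1-led cluster. A link within nuclei cannot be told apart there from differences between libraries. Nuclei with at least 1000 UMIs were also thinned to 1000 UMIs each, and 9829 nuclei with fewer were left out. Of the thinned nuclei in NestinCre EAE, 18.4% of the Iigp1-led cluster, 13.1% of infiltrating phagocytes, 4.55% of Bergmann glia, 1.07% of granule cells and 0.144% of excitatory neurons held a Cxcl10 UMI.

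The genotype effect was also tested within classes. In granule cells 5 of 9 members tested rose in NestinCre EAE, where 1.96% of 15657 genes passed. Cxcl9, Cxcl10 and Ccl2 were under 1 UMI per 1000 nuclei there in fl EAE 1, 2 and 4, and Cxcl9 and Cxcl10 were at 0 in those libraries in oligodendrocytes, so they could pass the filter on low counts through the NestinCre EAE libraries in which they were high, and no share of all 10 members is read from these counts, here or in oligodendrocytes. These were Cxcl9 (4.77, SE 0.75, adjusted p = 0.0114), Cxcl10 (3.97, SE 0.70, adjusted p = 0.0192), Ccl2 (2.82, SE 0.51, adjusted p = 0.0220), Ccl5 (2.24, SE 0.29, adjusted p = 0.00632) and Cxcl16 (1.85, SE 0.30, adjusted p = 0.0127). In mature oligodendrocytes 3 of the 7 members tested rose, where 1.73% of 12097 genes passed, namely Cxcl9 (3.74, SE 0.60, adjusted p = 0.00603), Cxcl10 (3.17, SE 0.61, adjusted p = 0.0171) and Ccl5 (2.88, SE 0.36, adjusted p = 0.00224). In the other 10 classes tested, microglia aside, 0 of 16 member tests passed, where 0.22% of all gene tests did, and 2 had an unadjusted p under 0.05. Both were Ccl5, higher in excitatory neurons (0.87), where 733 of 13763 genes had such a p, and in molecular layer interneurons (1.62), where 838 of 11473 did. No excess of members is read from them. Without fl EAE 3, 7 members passed in granule cells, where 2.13% of genes did, with Ccl12 (2.88, adjusted p = 0.00286) and Ccl7 (2.23, adjusted p = 0.0423) added, of which Ccl7 had not passed the filter on low counts with all libraries, and 4 in mature oligodendrocytes, where 1.75% did, with Ccl12 added (3.14, adjusted p = 0.00486). Cxcl9 had 13.1, 9.11, 18.7 and 10.5 UMIs per 1000 granule nuclei in NestinCre EAE 1 to 4 and 0.111, 0, 2.19 and 0 in fl EAE 1 to 4, and Cxcl10 had 30.8, 26.4, 27.6 and 6.69 against 0.111, 0.0960, 6.08 and 0.352.

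Markers of immune cells stood in granule nuclei in the same libraries. The 8 phagocyte markers summed to 102 to 521 UMIs per 1000 granule nuclei in NestinCre EAE and 72.4 to 126 in fl EAE, and the 7 neutrophil markers to 31.1 to 254 and 12.96 to 21.2. Among the immune marker lists only the neutrophil sums did not overlap between the EAE groups. Microglia markers summed to 371 to 504 in NestinCre EAE and 314 to 405 in fl EAE. Those of border-associated macrophages summed to 17.1 to 39.9 and 20.2 to 28.1, and those of T or NK cells to 14.5 to 29.7 and 13.5 to 21.8. The part of RNA from immune cells in the granule cell result was not tested. In granule cells the calls of Cxcl9, Cxcl10 and Ccl2 were lost without fl EAE 1 (adjusted p = 0.0538, 0.0593 and 0.0841), that of Cxcl10 also without fl EAE 2, NestinCre EAE 2 or NestinCre EAE 3 (0.0506 to 0.0569) and that of Ccl2 without NestinCre EAE 1, 2 or 3 (0.0523 to 0.0632). In mature oligodendrocytes the call of Cxcl10 was lost without fl EAE 1 (0.0598) or fl EAE 2 (0.0515). Cxcl9 of mature oligodendrocytes also passed against naive libraries in NestinCre EAE (adjusted p = 0.0239, 1 of 7 members where 5.1% of 12773 genes passed), and that call was lost without NestinCre EAE 4 (3.49, adjusted p = 1.00).

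Ccl25, the CCR9 ligand known from thymus and small intestine, was the most abundant member and was found in every class. It had 850.3 UMIs per 1000 nuclei in inhibitory neurons (814 to 888), 782 in other excitatory neurons (744 to 821), 706 in monoaminergic neurons (520 to 936) and 685 in Golgi cells (558 to 831), against 137 in granule cells (133 to 141) and 77.1 in mature oligodendrocytes (71.02 to 83.6). In CPM these levels drew together, at 75.0 CPM in inhibitory neurons, 67.8 CPM in excitatory neurons, 58.7 CPM in granule cells and 34.4 CPM in mature oligodendrocytes. Oligodendrocyte progenitors (79.6 CPM, 102 UMIs), leptomeningeal cells or fibroblasts (99.3 CPM, 17 UMIs) and choroid plexus epithelial cells (132 CPM, 10 UMIs) stood above inhibitory neurons on that scale. Purkinje cells stood at 38.0 CPM. Its gene model spans 166100 bases of chromosome 8 (GRCm39, 4374661 to 4540760, plus strand), of which 12537 are exonic, and overlaps Elavl1 on the other strand and Gm45117 on its own. This model was taken here from the GENCODE annotation, and whether the deposited counts used the same model was not checked. Whether part of the Ccl25 count belongs to overlapping genes was not tested.

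Cx3cl1, the membrane-anchored ligand of the microglial receptor CX3CR1, was highest in excitatory and inhibitory neurons. It had 486 UMIs per 1000 nuclei in excitatory neurons (456 to 516) and 462 in inhibitory neurons (435 to 490), 137 in molecular layer interneurons (123 to 152) and 33.7 in granule cells (31.8 to 35.6), and 26.4 (22.8 to 30.3) in mature oligodendrocytes. The first pair of intervals overlaps and the others do not. In the 129 Purkinje nuclei of NestinCre EAE no Cx3cl1 UMI was found, which allows up to 28.6 UMIs per 1000 nuclei, while 72 Ccl25 UMIs were. In CPM, Cx3cl1 stood at 42.1, 40.7, 34.8, 14.4 and 11.8 CPM in the 5 classes, in the order just given, while Golgi cells, deeper than these, held 17.5 CPM. Per 1000 nuclei the granule cell level lay inside the intervals of astrocytes (17.4 to 58.9) and microglia (19.6 to 49.6). In naive libraries excitatory neurons held 584 (546 to 625.1) and inhibitory neurons 511 (478 to 546) Cx3cl1 UMIs per 1000 nuclei.

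Cxcl12, which retains CXCR4-bearing leukocytes at vessels, was an endothelial transcript in every group. Endothelial cells held 9421 Cxcl12 UMIs per 1000 nuclei in NestinCre EAE (179 UMIs in 19 nuclei), 5818 in fl EAE (128 in 22) and 4759 in naive libraries (138 in 29), with 1600, 14000, 1000 and 14100 in NestinCre EAE 1 to 4 and 3083 to 7000 in the other libraries. A single endothelial nucleus held 72, and without it the NestinCre EAE level was 5944 (4872 to 7183). Leptomeningeal cells or fibroblasts followed at 339, 324 and 282, Golgi cells, inhibitory interneurons of the granular layer, at 107, 90.3 and 134 and molecular layer interneurons at 63.4, 61.1 and 49.4 Cxcl12 UMIs per 1000 nuclei in NestinCre EAE, fl EAE and naive libraries, against 5.19 in granule cells of NestinCre EAE. Endothelial Cxcl12 differed more between the NestinCre EAE libraries than between groups, and too few nuclei were present for a test in that class.

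**Figure D5:**
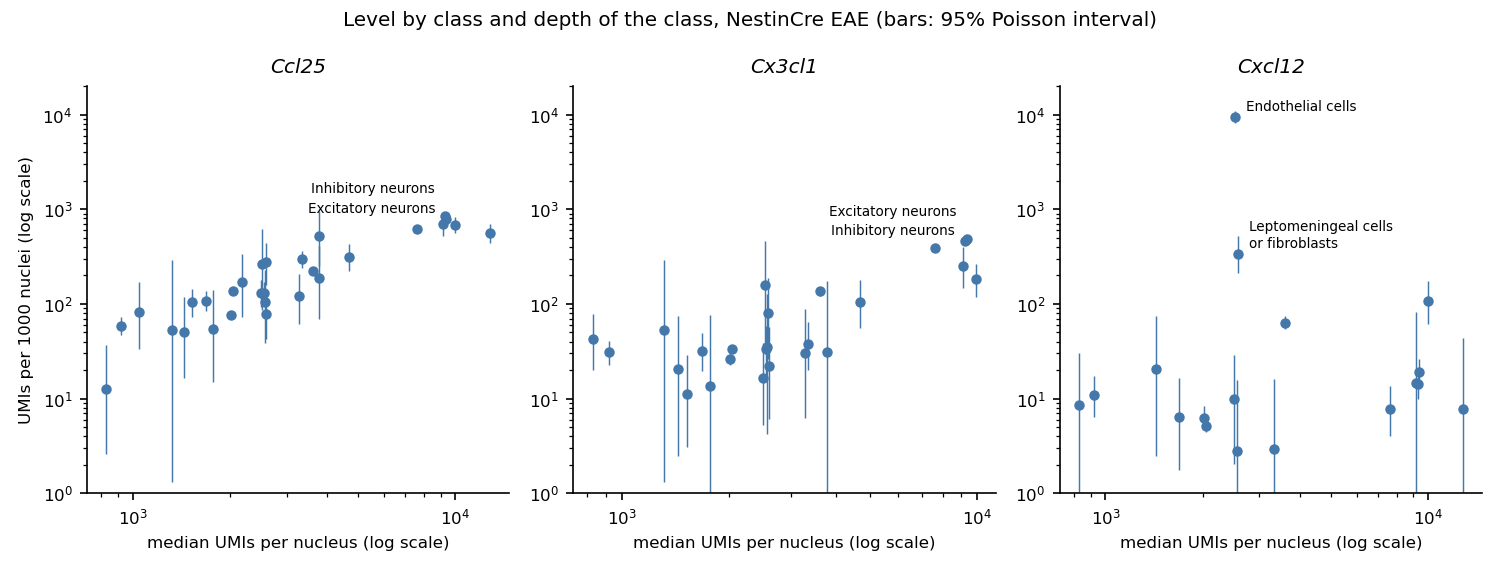
UMIs per 1000 nuclei of Ccl25, Cx3cl1 and Cxcl12 in each class of NestinCre EAE against the median UMIs per nucleus of the class, both on log scales, with 95% Poisson intervals; classes with 0 UMIs are not drawn. Ccl25 climbs with depth to 850.3 in inhibitory neurons, Cx3cl1 reaches 486 in excitatory neurons, and Cxcl12 stands at 9421 in endothelial cells whose depth is that of many other classes.

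The genes whose levels over the 23 named classes of the EAE libraries were most like each member's are given by Pearson's r of log2(CPM + 1), as a description over classes that share libraries, among 18365 genes. For Cxcl10 they were Gbp2 (0.95), Irf7 (0.94) and Gbp4 (0.93), and for Cxcl9 Dnase1l1 (0.90), Tgfbi (0.90) and Xdh (0.87). For Cxcl16 they were Batf2 (0.88), Phf11d (0.87) and Gm17268 (0.86). For Ccl2 they were Tyrobp (0.91), Batf3 (0.90) and Diaph2 (0.88), for Ccl12 P2ry6 (0.91), C1qa (0.90) and Lgmn (0.90), and for Ccl7 Tlr5 (0.93), Rab7b (0.92) and Cfhr2 (0.89). For Cxcl12 they were Cdh5 (0.87), which encodes the cadherin of endothelial junctions, Wfdc1 (0.86) and A930027P06Rik (0.86). Ccl5 was nearest to Cab39, Cnot1 and Zfp292 (0.88 each), Ccl25 to Gga2 (0.88), Rusf1 and Pex3 (0.86 each) and Cx3cl1 to Rpap3 (0.86), Zscan25 (0.83) and Xpc (0.78).

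Other genes of the chemokine system were read in the same genotype comparison over all nuclei. Of 28 other chemokine genes 13 were tested and 6 rose, and of 12 receptor genes 9 were tested and 1 rose, with none of either list lower, where 3.3% of all genes passed; none of 3 processing enzymes passed. The filter on low counts can admit a gene through the group in which it is high, as the counts of Ccl8 show (47 to 165 UMIs in NestinCre EAE libraries and 1 to 22 in fl EAE libraries), so the share of tested genes that passed is not that of the lists. Among the 6 other chemokines called, the largest values were those of Ccl8 (3.19, adjusted p = 0.0129), Ccl4 (2.77), Ccl6 (2.76, adjusted p = 0.0491) and Cxcl11 (2.63). Like CXCL9 and CXCL10, the product of Cxcl11 binds CXCR3. Ccl9 (2.43) and Ccl19 (1.70) were also called, and genes that did not pass the filter on low counts are not ranked. The receptor called was Cxcr4 (1.94, adjusted p = 0.0429), which binds CXCL12. With 1 library left out, Ccl6, Ccl19 and Cxcr4 each passed in 2 of 8 fits (adjusted p up to 0.193, 0.140 and 0.165), so these calls lie at the edge of the threshold. Ccl4 and Ccl9 passed in 5 of these 8 fits (up to 0.0854 and 0.0872), Ccl8 in 6 (up to 0.0519) and Cxcl11 in 7 (up to 0.0610). Cxcr4 did not pass without the immune classes, and Cxcr4, Ccl6 and Ccl19 did not pass when the nearest unnamed clusters were left out as well. In granule cells 3 of 8 other chemokines tested rose with the genotype, namely Ccl8, Ccl19 and Ccl6, where 1.96% of all genes passed. Against naive libraries, Ccl28 (-2.48, adjusted p = 0.00467) was lower in mature oligodendrocytes of NestinCre EAE, 1 of 4 other chemokines tested. The scavenging receptor gene Ackr4 (-1.32, adjusted p = 0.0162) was lower there too, 1 of 6 receptors tested, where 5.1% of all genes passed. Neither passed without NestinCre EAE 4 (adjusted p = 0.0584 and 0.152), Ccl28 did not pass without the run term, and Ackr4 did not pass per nucleus.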

How the data were processed

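Nuclei were sorted by Hoechst stain and sequenced with droplet 3' chemistry. The authors deposited raw UMI counts per gene and barcode, made with Cell Ranger (6.0.2 in the submitters' processing notes, 7.0.0 in the headers of run 1) on GRCm39 with introns counted. Here nuclei with at least 200 genes (run 1) or 500 genes (runs 2 and 3) and under 5% mitochondrial UMIs were kept, doublets were removed (28764 of 188089 barcodes), and nuclei were clustered with scanpy 1.11.5 and named from marker lists. Counts were summed per library and class and tested with edgeR 4.0.16 (quasi-likelihood, TMM, sequencing run as covariate), with DESeq2 1.42.0 as an alternative. The scripts were tested on simulated data. A class was tested where each library held at least 10 nuclei. The members and the lists of other chemokine genes, receptors and yardsticks were chosen with earlier results of these data known. All 10 members are named, with the 3 genes most like each over classes, and the other chemokine and receptor genes that passed the test; some listed genes are not reported here. Intervals cover counting error only. The EAE libraries were not treated as paired. In run 1, correlations of deviations from group means were -0.06, 0.23 and 0.23 between libraries of the same number and -0.26 to 0.09 between the others. With so few libraries per group these values do not settle whether the numbers mark pairs.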

Additional observations from a re-analysis of the deposited data

Results flagged for a closer look

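In groups of 4 libraries, single libraries lay far from the other 3 by Dixon's criterion, which chance alone meets in about 1 group in 20. In fl EAE 3, Cxcl9 stood at 1.32 CPM over all nuclei and 0.872 CPM in granule cells, Cxcl10 at 4.24 and 2.42 CPM, and Ccl12 at 5.45 and 3.49 CPM, and in granule cells alone Ccl2 at 1.26 CPM and Ccl5 at 2.76 CPM. In NestinCre EAE 3, Cxcl9 stood at 10.5 CPM over all nuclei and 8.49 CPM in granule cells. In NestinCre EAE 4, Cxcl10 stood at 2.97 CPM in granule cells, below the other libraries (10.9 to 12.5 CPM).

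Barcodes left out as doublets also carried the chemokines. In NestinCre EAE libraries the median was 19.6 UMIs per 1000 barcodes for Cxcl9, 56.7 for Cxcl10 and 16.2 for Ccl2, where the naive libraries had 0. It was 8.14 for Cxcl16 (naive 2.78 to 3.39), 23.5 for Ccl5 (naive 3.58 to 11.1), 2.35 for Ccl7 (naive 0 to 0.295) and 28.1 for Ccl12 (naive 0.295 to 0.795).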

How the results depend on the processing

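Counts of calls against naive libraries depended most on the processing, and the cause was not tested. For NestinCre EAE over all nuclei, the count of genes called was 476 with DESeq2, 27 per nucleus, 677 without the run term and 0 to 536 with 1 library left out, and the count of members 3 with DESeq2, 7 without the run term and 0 to 4. By class, genes were 1664 without a filter, 2550 per nucleus, 2094 without the run term and 355 with own UMIs. Own UMIs means that each nucleus was classed by its own marker UMIs in place of its cluster. Member tests past the threshold were 1 with DESeq2, 6 without a filter, 5 per nucleus and 14 without the run term. They were 6 with microglia joined to the nearest unnamed clusters and 1 to 7 with 1 library left out. For fl EAE over all nuclei, genes were 391 with DESeq2, 35 per nucleus, 2 without immune classes and nearest clusters and 0 to 649 with 1 library left out. By class they were 412, 798 without a filter, 9317 per nucleus, 55 without the run term, 25 with own UMIs and 145 to 502, and member tests 0 with DESeq2, 2 per nucleus, 0 with own UMIs, 0 with microglia joined and 0 to 1. The scaling per nucleus moved the median log2 value of all genes from 0.03 to 0.33 in NestinCre EAE and from 0.02 to 0.38 in fl EAE.

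For the genotype effect, genes over all nuclei were 259 of 17801 without immune classes and nearest clusters. They were 166 to 624 with 1 library left out, with 1 to 7 members. By class 1939 gene tests and 25 member tests passed without a filter, and 6 to 15 member tests with 1 library left out. With the replicate block, 513 genes and 5 members passed, Cxcl10 being the added one, and Ccl2 of granule cells was lost. Whether the same numbers mark pairs is not known. Values near 0 changed sign. The genotype effect of Cxcl12 was -0.032 in run 1 alone (-0.032 to 0.27 with 1 library left out) and that of Cx3cl1 -0.047 per nucleus and -0.13 in run 1 alone (-0.13 to 0.13). In NestinCre EAE against naive, Cxcl12 was -0.013 without the run term (-0.025 to 0.65), Ccl25 0.22 per nucleus and Cx3cl1 0.29 per nucleus and 0.015 without immune classes and nearest clusters (-0.45 to 0.23). In fl EAE against naive, Cxcl12 was -0.17 without the run term, Ccl25 -0.0023 without a filter and -0.085 without the run term (-0.036 to 0.032), Cx3cl1 0.34 per nucleus (-0.31 to 0.37) and Cxcl16 0.13 per nucleus, 0.058 without immune classes and 0.032 without nearest clusters too. The ratio of the highest class to granule cells in CPM moved to 30.05 for Ccl12, 0.973 for Ccl25, 1.96 for Cx3cl1 and 299 for Cxcl12 with own UMIs, and per 1000 nuclei to 6.21, 14.4 and 1815 for the last 3. Granule cells held 0.0544% to 1.80% of the highest class's Cxcl12 with 1 library left out. Fits without fl naive 2, and of Golgi and Purkinje cells under 6000 UMIs, could not be made.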
